A study of Homo sapiens with 2 samples.

Results

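The CYP4F genes are a family of cytochrome P450 genes that lie side by side on chromosome 19, and 6 of them were followed through the NRF1 binding data: CYP4F2, CYP4F3, CYP4F8, CYP4F11, CYP4F12 and CYP4F22. They are 6 of 20162 annotated protein-coding genes. An NRF1 peak was assigned to a gene when its centre lay within 20 kb of any transcription start site (TSS) of that gene on hg19. Of 5683 peaks, 2 met this rule. Adding the sites that the study's annotation table lists for these genes added no peak. One of the 2 peaks lay at the start of CYP4F11 and the other at the start of CYP4F3, and the same 9-base antioxidant response element (ARE) was found in both. The genes and their peaks were chosen by measured values, the positions and scores of these same peaks, so both are given as a description, with no test.

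The peaks came from chromatin immunoprecipitation with an antibody to the transcription factor NRF1 (NFE2L1), followed by sequencing (ChIP-seq), in HCT116 human colon cancer cells. This established cell line had been treated with the proteasome inhibitor MG132 at 1 µM for 16 h. The peak list comes from 1 ChIP library, so no value has a replicate error and the depth is unknown. An input library from equally treated cells and the expression of the genes were not analysed here, and no untreated cells were compared.

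CYP4F enzymes are membrane-bound monooxygenases that add a hydroxyl group at or near the methyl end of long-chain fatty acids and related lipids. Through this reaction they inactivate leukotriene B4, form signalling lipids from arachidonic acid and begin the breakdown of vitamins K and E. NRF1 is a CNC-bZIP factor of the endoplasmic reticulum that is degraded by the proteasome in unstressed cells, reaches the nucleus when the proteasome is inhibited, and binds AREs together with small MAF proteins.

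The 300 bases around the centre of each peak are shown because they hold every ARE that was found in these peaks. Capitals mark the AREs, searched as TGACNNNGC or TGAGNNNGC on both strands. Both sequences are from hg19 and run 5′ to 3′ on the strand of the gene, so that the TSS follows at the right. The CYP4F3 sequence is chr19:15751350-15751649 on the plus strand and the CYP4F11 sequence is chr19:16045683-16045982 on the minus strand.
CYP4F3: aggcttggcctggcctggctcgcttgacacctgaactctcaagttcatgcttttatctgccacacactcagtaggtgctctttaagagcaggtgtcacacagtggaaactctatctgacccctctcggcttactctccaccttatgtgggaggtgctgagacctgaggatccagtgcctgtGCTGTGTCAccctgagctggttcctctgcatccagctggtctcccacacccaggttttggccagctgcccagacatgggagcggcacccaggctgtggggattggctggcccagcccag
CYP4F11: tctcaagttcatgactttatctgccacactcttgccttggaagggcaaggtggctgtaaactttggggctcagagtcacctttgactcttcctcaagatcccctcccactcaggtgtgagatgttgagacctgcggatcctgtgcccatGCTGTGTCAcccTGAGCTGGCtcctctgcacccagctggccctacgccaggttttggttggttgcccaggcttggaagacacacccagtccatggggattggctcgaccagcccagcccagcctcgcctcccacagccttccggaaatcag

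CYP4F11, which hydroxylates vitamin K and hydroxy fatty acids, had the peak with the higher score. The peak lay at chr19:16045475-16046190 and was 716 bp wide. Its score was 334.06, on a scale of 10 × −log10 of the p-value from the peak caller. This placed it at rank 327 of 5683, among the top 5.75% of a list whose scores ran from 50.00 to 3100 with a median of 91.86. The peak centre was 155 bp upstream of the outermost of the 5 TSSs of the gene and 493 bp upstream of the TSS of its canonical transcript. The peak overlapped an exon of CYP4F11 and no other annotated gene.

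CYP4F3, known as the leukotriene B4 hydroxylase of neutrophils, had the other peak, at chr19:15751169-15751829. It was 661 bp wide and scored 130.84, which is rank 1766 of 5683 (the top 31.1%). Its centre was 208 bp upstream of the TSS of the canonical transcript. It overlapped an exon of CYP4F3 and no other gene. The rank of CYP4F11 was close under another measure, since its score per 100 bp of width, 46.7, was rank 362. That of CYP4F3 was lower, with 19.8 per 100 bp and rank 2713. The GC content of the peaks was alike, at 59.1% for CYP4F11 and 58.9% for CYP4F3.

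The other 4 members had no peak near a start site. CYP4F8, a hydroxylase of prostaglandin precursors in the seminal vesicles, was within the 20 kb rule only through the CYP4F3 peak. This peak lay 12.3 kb from an internal TSS of CYP4F8 and 25.5 kb from its canonical TSS. CYP4F12, an enzyme of the small intestine that also acts on antihistamines, was the nearest gene outside the rule, with its nearest peak 32.3 kb away. The nearest peak of CYP4F2, the main vitamin K and vitamin E hydroxylase of the liver, was that of CYP4F11 at 36.9 kb. CYP4F22, which makes the very long hydroxy fatty acids of skin ceramides, had its nearest peak at 41.4 kb, with a score of 89.84.

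**Figure D1:**
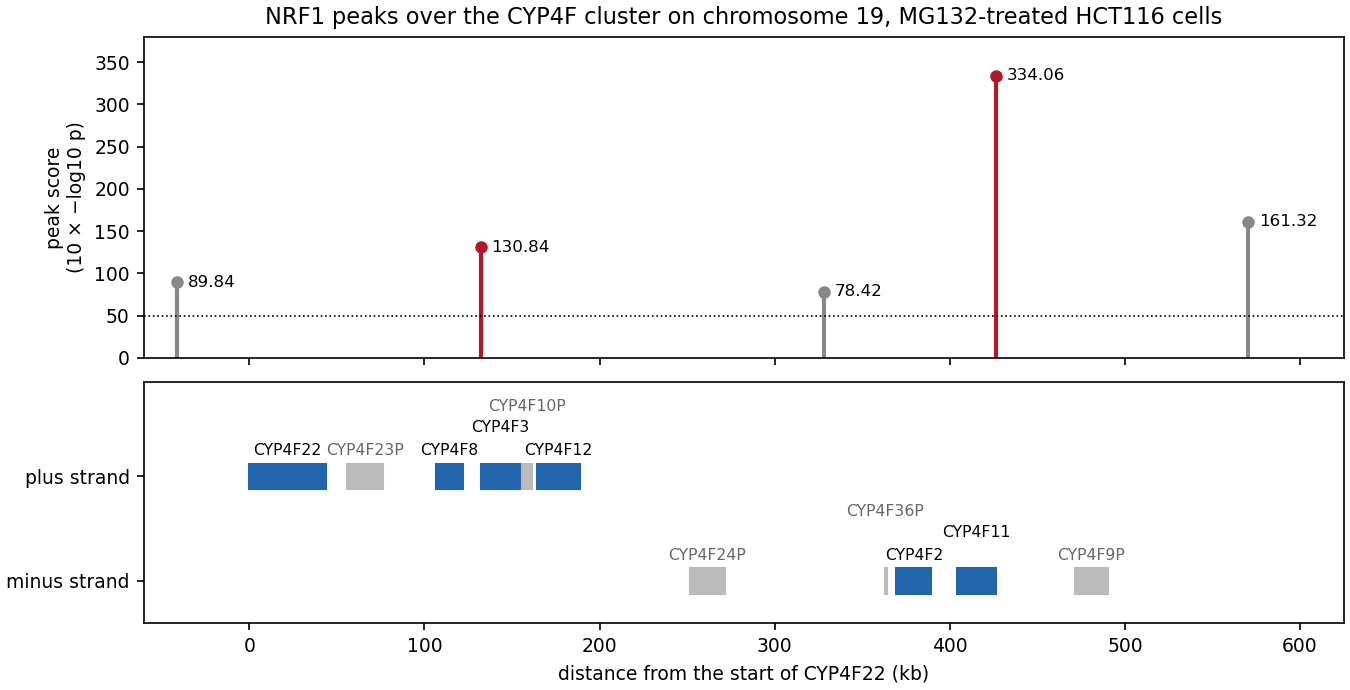
NRF1 peaks (top, score against kb from the start of CYP4F22) above the CYP4F genes (blue) and pseudogenes (grey) of each strand. The red peaks, 130.84 at CYP4F3 and 334.06 at CYP4F11, are those of the members, grey peaks are the others of the region, and the dotted line is a score of 50, the lowest in the list.

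Within 20 kb, 3 of 6 members had a peak, against 18.7% of protein-coding genes. Within 2 kb of a TSS, the count was 2 of 6, against 6.03%. Since the genes were chosen with these peaks known, nothing is read from the difference. All 5 CYP4F pseudogenes of the cluster were outside the rule, with nearest peaks at 23.4 kb (CYP4F10P), 34.9 kb (CYP4F36P), 57.0 kb (CYP4F24P), 64.0 kb (CYP4F9P) and 76.6 kb (CYP4F23P). The only other gene with a TSS within 20 kb of a member peak was the olfactory receptor gene OR10H4, 9.3 kb from that of CYP4F11.

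**Figure D2:**
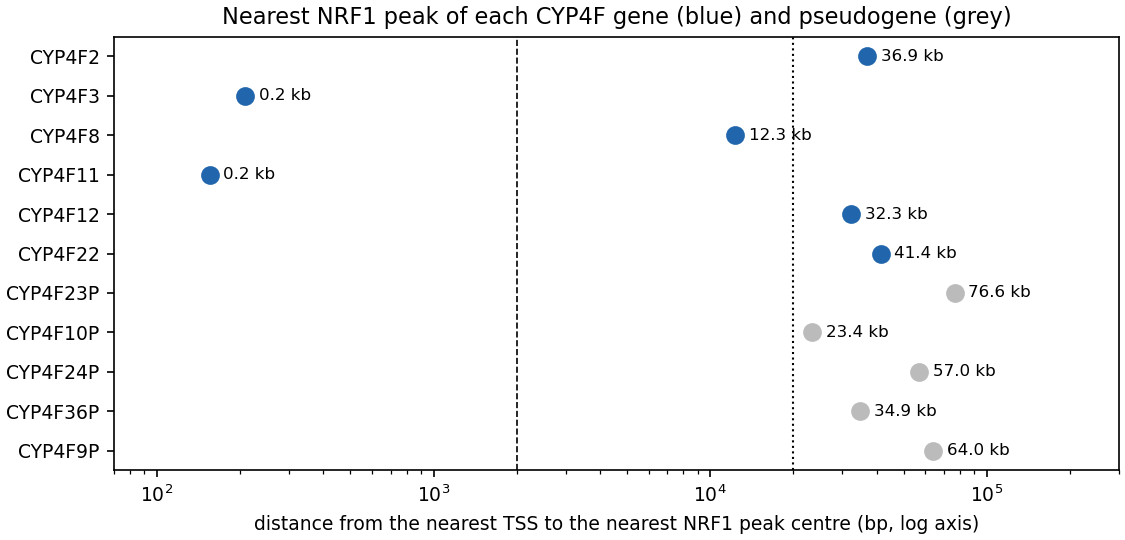
Distance in bp (log axis) from the nearest TSS of each CYP4F gene (blue) and pseudogene (grey) to the centre of the nearest NRF1 peak. The dashed line is 2 kb and the dotted line 20 kb, and CYP4F3 and CYP4F11 alone lie left of 2 kb.

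The cluster from the start of CYP4F22 to the end of CYP4F9P, 490.5 kb long, held 3 peaks, or 6.12 per Mb. Chromosome 19 as a whole had 2.71 peaks per Mb, and chromosomes 1 to 22, X and Y had 1.83. The 3 peaks include the member peaks, with which the genes were chosen, so nothing is read from the difference. The third peak of the cluster, at chr19:15947555-15947874, overlapped no annotated gene and scored 78.42.

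Both member peaks held an ARE, as did 87.4% of the 5673 peaks searched. The form TGACACAGC was present in both. In CYP4F11 it lay at chr19:16045825-16045833, its middle 3 bp from the peak centre and 152 bp upstream of the nearest TSS. In CYP4F3 it lay at chr19:15751531-15751539, 36 bp from the centre and 172 bp upstream of the TSS. It pointed the same way with respect to the gene in both, with TGACACAGC on the strand opposite to the gene. The CYP4F11 peak held a second ARE, TGAGCTGGC, at chr19:16045813-16045821 and 15 bp from the centre. All 3 AREs lay outside annotated genes, upstream of the first exon.

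The full ARE, TGACTCAGC or TGAGTCAGC, contains the binding motif of AP-1 and is the form most often linked with NRF1 and NRF2. Neither member peak held it, while 61.3% of peaks did. With positions counted from 1 at the T of TGA, the shared form differs from TGACTCAGC by T5A. The windows of 2 kb on both sides of the canonical TSS held 3 AREs for CYP4F2, 4 for CYP4F3, 8 each for CYP4F8 and CYP4F12, 5 for CYP4F22 and 19 for CYP4F11. None of these was a full ARE. Among all protein-coding genes, 96.7% of such windows held an ARE and 7.31% a full one. Of the AREs in the members' windows, those in a peak were the 2 of CYP4F11 and the 1 of CYP4F3.

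Across the genome, the shared form had 34866 copies, of which 295 (0.846%) lay in a peak. This was rank 10 of the 128 forms that the ARE consensus allows. For the full ARE the share was 7.37%, with 3915 of 53132 copies in a peak, and for the other 126 forms together it was 0.206%. The second form of the CYP4F11 peak was rank 61, with 49 of 21813 copies in a peak (0.225%). Within the CYP4F cluster, 2 of 12 copies of the shared form were in a peak, namely those at CYP4F3 and CYP4F11. The shared form was taken from these 2 peaks, so nothing is read from this count. Of the 9 full AREs in the cluster, 0 were in a peak of this library, and 9 copies are too few to set against the genome share. The full AREs nearest to the 2 bound genes were 1.8 kb from a TSS of CYP4F3 and 32.5 kb from a TSS of CYP4F11.

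**Figure D3:**
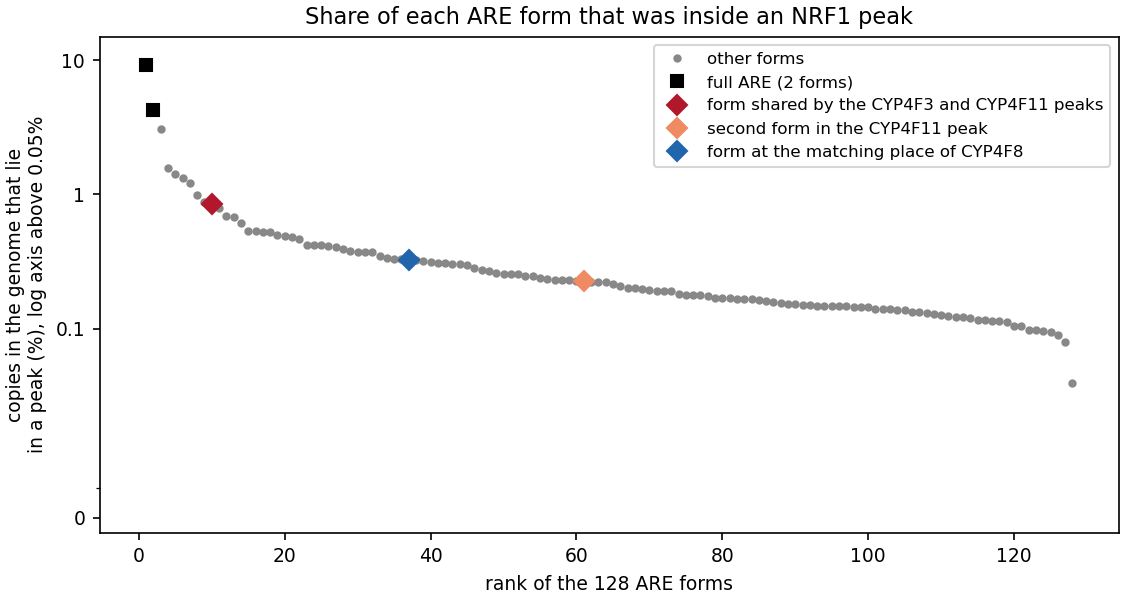
Percent of the genome copies of each of the 128 ARE forms that lay in an NRF1 peak, in order of that percent (log axis above 0.05%). The 2 full forms lead, the form shared by the CYP4F3 and CYP4F11 peaks is rank 10 (0.846%), the form at the matching place of CYP4F8 rank 37 (0.325%) and the second form of CYP4F11 rank 61 (0.225%).

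The shared form was found in 287 peaks, 5.06% of those searched, and 243 of these held no full ARE. In these 243 peaks, its median distance from the peak centre was 35 bp, and in 157 it was within 50 bp. Their median score was 85.19, with quartiles of 61.14 and 136.82. In this group the CYP4F11 peak was place 13 and the CYP4F3 peak place 71. Among the 150 peaks with the shared form as the only ARE, whose median was 76.82, CYP4F3 was place 33. Peaks with a full ARE had a median of 103.43 (n = 3478), those with other AREs alone 83.15 (n = 1237) and those with no ARE 71.76 (n = 715). Both member peaks were above the median of each of these groups. CYP4F3 was below the upper quartile of the 243 peaks with the shared form and no full ARE (136.82). It was above that of the 150 with this form as the only ARE (115.33). The members were chosen with these scores known, and the shared form was taken from their peaks, so nothing is read from these places. By score per 100 bp of width, the CYP4F3 peak was rank 2713 of 5683.

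**Figure D4:**
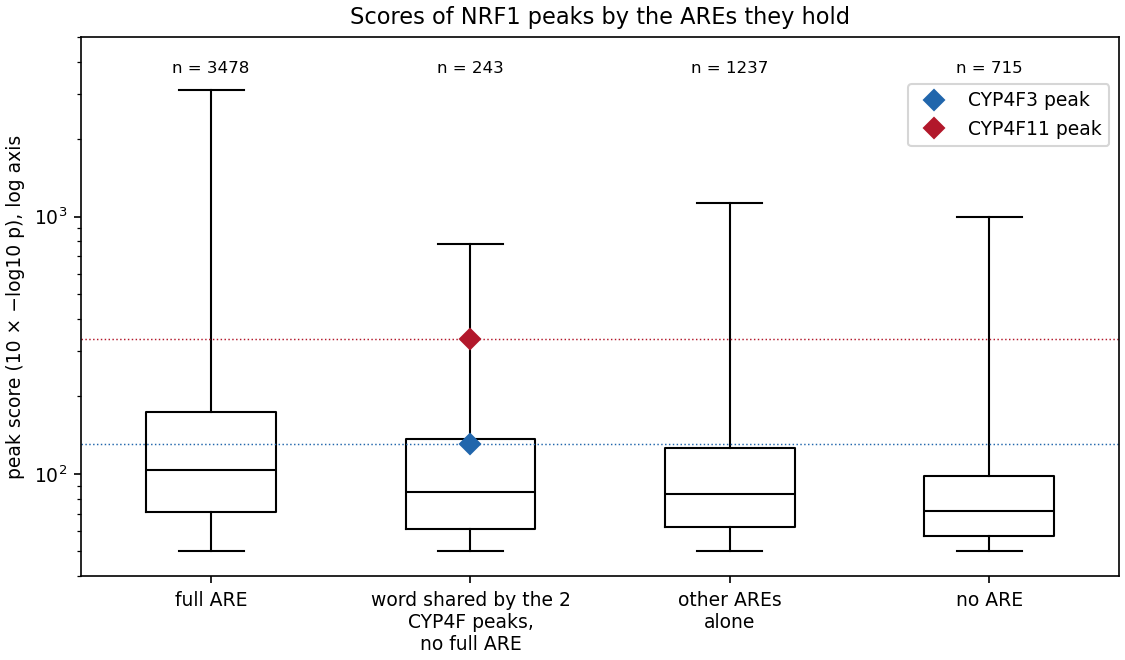
Score of the NRF1 peaks (log axis) by the AREs they hold; boxes give the quartiles and median, and whiskers reach the lowest and highest peak. Diamonds and dotted lines mark CYP4F11 (334.06) and CYP4F3 (130.84), which belong to the second group, whose median is 85.19.

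The RefSeq table of promoters (GRCh38.p14, 250 bases before to 50 after a start) held 5 of the 6 members. An ARE was present in 29.1% of its 35116 windows and the shared form in 125 (0.356%). One of the CYP4F11 windows held both AREs of the peak. CYP4F8 and CYP4F22 had 1 ARE each, and CYP4F2 and CYP4F3 had 0 at the starts listed there. The shared ARE of CYP4F3, 172 bp upstream of the TSS used above, was thus outside the window listed for that gene. Its distance depends on the start that is used.

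The members are paralogs, so the sequence under each peak was set against the rest of the genome by local alignment. The coding sequences of their canonical transcripts were aligned over the whole length instead, and identity was counted over aligned bases without gaps. It was 91.5% for CYP4F2 and CYP4F3, the closest of 15 pairs, 88.9% for CYP4F2 and CYP4F11, and 86.8% for CYP4F3 and CYP4F11. CYP4F22 was the most distant, at 67.8% to 72.0%. The CYP4F11 peak matched 6 other places and the CYP4F3 peak 7, and none was outside the cluster. The CYP4F11 peak was 81.4% identical to the start of CYP4F24P, 78.6% to that of CYP4F12, 77.7% to that of CYP4F2 over 49.0% of the peak, 73.3% to that of CYP4F3 and 70.3% to that of CYP4F8. For the CYP4F3 peak, the corresponding values were 75.1% for CYP4F24P, 71.8% for CYP4F12, 80.0% for CYP4F2 over 42.8% of the peak, and 68.1% for CYP4F8. No match was found at CYP4F22.

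Reads from near-identical copies can be placed at the wrong copy. Of the 687 stretches of 30 bases in the CYP4F11 peak, 2 had an exact copy elsewhere, at CYP4F12, and of the 632 in the CYP4F3 peak, 0 had one. Over any 93 aligned columns, the length of the reads, the CYP4F11 peak differed from every match of at least that length by at least 7 bases and the CYP4F3 peak by at least 9.

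The place that matches the shared ARE was then read at each paralog, as a description of the letters. Each sequence is hg19 with 15 bases on both sides of the matching place, which is in capitals, and runs 5′ to 3′ on the strand that aligns with TGACACAGC of CYP4F3 and CYP4F11. CYP4F3 is chr19:15751531-15751539 (minus strand), CYP4F11 chr19:16045825-16045833 (plus), CYP4F8 chr19:15725871-15725879 (minus), CYP4F12 chr19:15783728-15783736 (minus), CYP4F24P chr19:15891345-15891353 (plus) and CYP4F23P chr19:15674240-15674251 (minus), each giving the capitals.
CYP4F3: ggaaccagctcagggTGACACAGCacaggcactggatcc
CYP4F11: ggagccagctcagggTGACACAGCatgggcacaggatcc
CYP4F8: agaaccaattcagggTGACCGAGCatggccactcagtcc
CYP4F12: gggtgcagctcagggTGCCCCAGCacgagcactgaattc
CYP4F24P: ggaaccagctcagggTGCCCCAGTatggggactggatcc
CYP4F23P: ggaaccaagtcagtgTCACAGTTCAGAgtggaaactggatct

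The 9 bases were identical at CYP4F3 and CYP4F11, the 2 loci with a peak. The shared form was chosen because both of these peaks held it, so nothing is read from this identity. Whether the letters at the other loci relate to the lack of a peak was not tested. CYP4F8 carried A5C and C6G, which keep the ARE consensus, 154 bp upstream of its TSS and with no peak. Its form was rank 37 of 128 by the share of copies in a peak, with 9 of 2767 (0.325%). CYP4F12 carried A3C and A5C, 96 bp upstream of a TSS, and CYP4F24P A3C, A5C and C9T. Neither is an ARE. CYP4F23P had 3 inserted bases with G2C and C9A and no ARE. At CYP4F2, the alignment ended at this place, with 1 of the 9 bases aligned. A match to the consensus is a description of the letters and not a binding site.

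The second ARE of CYP4F11, TGAGCTGGC, was an ARE at no other locus. CYP4F3 and CYP4F24P carried C9T there, CYP4F2 carried G8A and C9T, and CYP4F8 carried G4A, C5T and C9T. In the 101 bases around the shared ARE of CYP4F11, identity was 84.2% with CYP4F3, 80.2% with CYP4F24P, 68.3% with CYP4F12, 66.3% with CYP4F23P and 63.4% with CYP4F8. For CYP4F2 it was 89.4%, but over 47 aligned bases. Around the shared ARE of CYP4F3, identity was 81.2% with CYP4F11, 80.2% with CYP4F24P, 66.3% with CYP4F12 and 65.3% with CYP4F8.

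**Figure D5:**
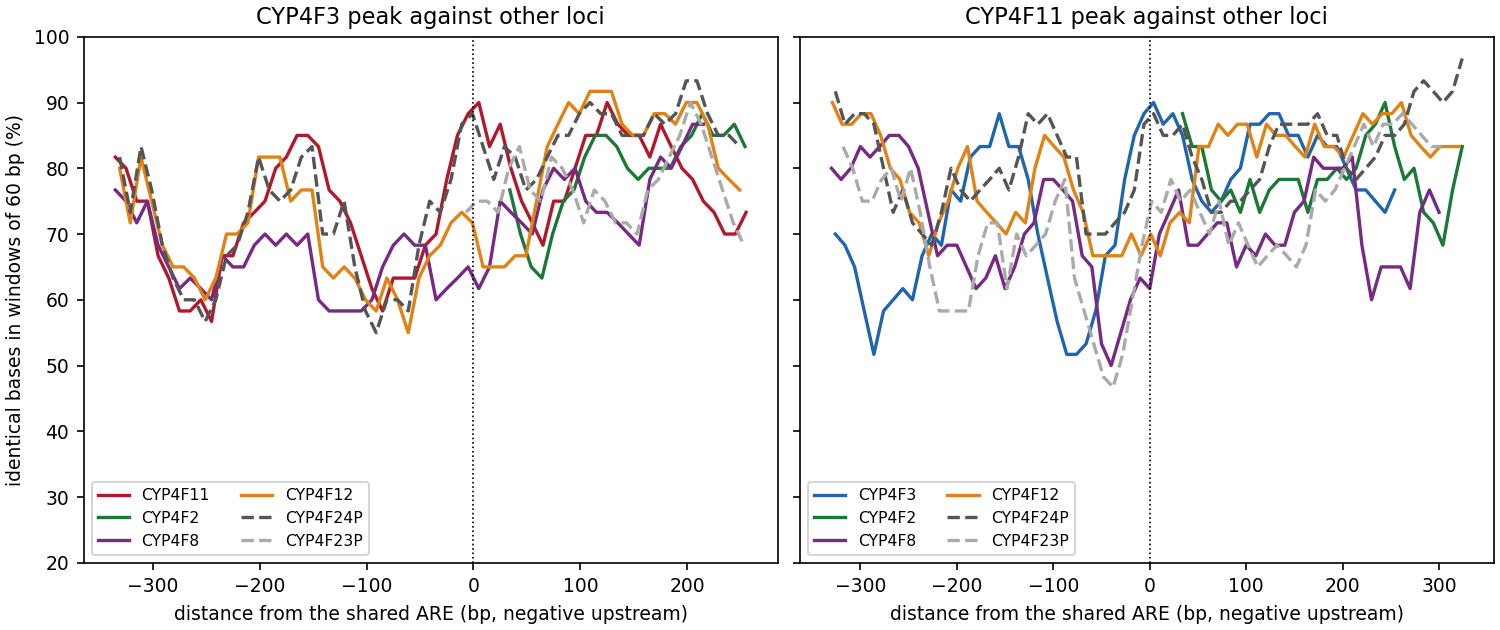
Percent of identical bases in windows of 60 bp between the CYP4F3 peak (left) or the CYP4F11 peak (right) and the matching loci, against the distance in bp from the shared ARE (dotted line). Solid lines are genes and dashed lines pseudogenes, and the lines of CYP4F3 and CYP4F11 against each other stand at 88.3% to 90.0% in the windows on both sides of the ARE. In the windows on both sides, CYP4F24P, which had no peak, stands at 86.7% and 88.3% against the CYP4F11 peak. Against the CYP4F3 peak it stands at 88.3% and 83.3%.

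Genes that act with the CYP4F enzymes were read by the same rule. In a list of 12 genes of leukotriene B4 metabolism and fatty acid ω-oxidation, 3 had a peak within 20 kb (25%), against 18.7% of protein-coding genes, so nothing is read from the count. ALDH3A2, the fatty aldehyde dehydrogenase that works after the hydroxylases, had a peak with a full ARE at chr17:19550709-19551326, 432 bp upstream of a TSS, with a score of 221.16 (rank 768). POR, which passes electrons to microsomal P450 enzymes, had a peak at chr7:75566948-75567716, with 2 full AREs and a score of 481.13 (rank 126). The POR peak was 7.3 kb upstream of the nearest annotated TSS of the gene, which need not be the outermost one. CYB5A, the cytochrome b5 that assists some of them, had a peak with a score of 62.17 at 9.4 kb. Of 4 genes listed for the vitamin K cycle, 1 had a peak within 20 kb (25%), against the same 18.7%, so nothing is read from this count either. This gene was NQO1, a quinone reductase, with a peak at chr16:69760258-69761433, 274 bp upstream of a TSS. The NQO1 peak had a score of 730.44 (rank 35) and 1 full ARE. The score of CYP4F11 thus lay between those of ALDH3A2 and POR.

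Among the 51 other CYP genes, 8 had a peak within 20 kb (15.7%) and 0 within 2 kb, against 18.7% and 6.03% of protein-coding genes. Of the 6 other CYP4 genes, CYP4B1 had one, 10.7 kb from a TSS, with a score of 188.03 and a full ARE. The CYP genes with a peak within 2 kb of a TSS were CYP4F3 and CYP4F11, which were chosen with these peaks known.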

How the data were processed

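NRF1 ChIP-seq in MG132-treated HCT116 cells was read from 1 deposited peak list. The authors sequenced the library with single-end reads of 93 cycles, mapped them to hg19 with Bowtie2 2.2.6 and called peaks with MACS 1.4.2, per the paper and the submitters' processing notes. The deposited score of a peak is its MACS p-value as −log10, multiplied by 10. The settings, the control of the peak calling and the removal of duplicates are not given in the sources used here. The depth per sample is unknown, and with 1 library no test was made.

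Distances ran from the peak centre to every TSS of GENCODE 44 lifted to hg19. AREs were searched on both strands, leaving out 5 peaks with undetermined bases and 5 outside chromosomes 1 to 22, X and Y. Peaks were aligned to the genome with BLAST 2.17.0 (word size 11, E-value 1e-05). Coding sequences were aligned in pairs over their whole length with Biopython 1.88. Python 3.11.15, numpy 2.4.6, pysam 0.24.0 and matplotlib 3.10.9 were also used. Scripts were tested on simulated data. Members and gene lists were chosen with earlier results of these data known. Named genes were the members, the other CYP4F genes and pseudogenes, genes with a TSS within 20 kb of a member peak, listed genes with a peak within 20 kb and other CYP genes with one within 2 kb. Alternatives were other score, distance, TSS, window, ARE and stretch settings.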

Additional observations from a re-analysis of the deposited data

How the results depend on the processing

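Of 28 alternatives over 9 results, 20 left the value the same or within 1.5 times and 8 moved it. With a window of 50 kb, the members had 4 peaks in place of 2, and 6 members had one in place of 3; with 10 kb, 2 members had one. The full form of the ARE was found in 0 of the member peaks. The number of other CYP genes with a peak went from 8 to 2 at a score of at least 100, to 4 with 10 kb and to 13 with 50 kb. The rank of the CYP4F3 peak went from 1766 to 2713 by score per 100 bp, and the copied stretches of the CYP4F11 peak from 2 to 0 with stretches of 50 bases. No alternative changed that CYP4F3 and CYP4F11 were the members with a peak within 2 kb. With peaks 208 and 155 bp from a TSS and scores of 130.84 and 334.06, a window of 1 kb or a score of at least 100 could not change it. No paired analysis was possible because there is 1 ChIP library and no test. Depth and replicate error are unknown, so the absence of a peak at the other members does not show that NRF1 was absent there.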

Other observations

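A search for words 1 base away from the full ARE was added after the sequences had been seen. The CYP4F3 peak held 1 such word beside the shared ARE, TGATTCAGC at chr19:15751272-15751280, which differs from TGACTCAGC by C4T and from TGAGTCAGC by G4T. It is not an ARE and lay 223 bp from the peak centre. The CYP4F11 peak held no such word beside the shared one.

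The peak at chr19:15947555-15947874, inside the cluster but beyond 20 kb of every member, held 2 AREs and 0 full ones, so all 5 AREs in a peak among the 500 of the cluster were of other forms than the full one.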
